A study of Rattus norvegicus with 10 samples.

Results

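Messenger RNA of 7 genes for water and ion transport, Aqp5, Slc12a2, Slc12a3, Atp1b1, Atp2a2, Atp2b1 and Atp2b2, was examined in single rat lacrimal glands. The members were taken by name, as every probe set that the array's platform annotation assigns to 1 of these symbols and to no other gene. This gave 22 probe sets for 7 of the 4736 genes that have such a probe set on the array. Probe sets of 1 gene are numbered here by brightness, with number 1 the brightest.

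Total RNA of 10 rat lacrimal glands was hybridised to Affymetrix arrays, 1 gland per array. The denervated group (n = 5) held glands collected 7 days after the greater superficial petrosal nerve had been cut. The 5 control glands comprised 3 contralateral glands from operated animals, also at 7 days, 1 gland with no operation and 1 gland at 7 days after a sham operation. The descriptions of the contralateral glands call them ipsilateral to the experimental side, against their titles, and the titles were followed. Strain, age, sex and the number of animals are not given in the labels, and nothing says that each gland of a group is from a different animal, so the p-values reflect only how these samples scatter, which may be technical. A contralateral gland shares an animal with a nerve section, and the unoperated and sham states were each represented by 1 gland.

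The lacrimal gland makes the watery part of the tear film, and parasympathetic fibres of the greater superficial petrosal nerve are its main secretomotor supply. In secretory epithelium the sodium pump, of which Atp1b1 encodes the beta 1 subunit, sets up the sodium gradient, and the sodium-potassium-chloride cotransporter NKCC1, encoded by Slc12a2, uses it to load chloride across the basolateral membrane. Chloride leaves on the luminal side and water follows, in part through aquaporin 5. Calcium released from the endoplasmic reticulum triggers this secretion. It is pumped back by SERCA2, the product of Atp2a2, and out of the cell by the plasma membrane calcium pumps encoded by Atp2b1 and Atp2b2. Slc12a3 encodes the thiazide-sensitive sodium-chloride cotransporter, best known from the distal tubule of the kidney.

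The deposited values were probe set intensities on a linear scale, and log2 intensity is used below, with values under 156.2 set to that floor, 7.29 on the log2 scale. A probe set was tested where its mean log2 intensity over the 10 glands was above 8.32, which left 6118 probe sets of all genes. Of the 22 probe sets of the transport genes, 14 passed and covered all 7 genes, while 8 did not and are given as values. Intensities of different probe sets depend on their probes, so levels are compared only within a probe set.

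A set of 3 arrays stood apart from the rest. Contralateral gland 1, the sham gland and denervated gland 1 correlated at 0.85 to 0.90 with each other across probe sets and at 0.72 to 0.82 with the other 7 arrays. Those 7 were not uniform. Denervated glands 2 and 5 correlated at 0.85 with each other, and denervated gland 5 at 0.72 to 0.80 with all remaining arrays. Of the secretory markers, 9 of 16 listed genes were measured, and the mean of these ran from 12.87 to 13.94 in denervated and from 12.43 to 14.05 in control glands. Dnase1, a secreted nuclease, had log2 intensities of 18.33, 19.24 and 19.46 in denervated gland 1, contralateral gland 1 and the sham gland, and of 9.57 to 13.90 in the other 7 glands. Scgb2a1, a secretoglobin, was at the floor in denervated glands 1, 2 and 5, contralateral gland 1 and the sham gland, and between 16.18 and 18.46 in the other 5. The secretory mean joins such opposed genes, so its range does not show them. Dmbt1, also of that list, was highest in denervated glands 2 and 5 (16.6 and 16.87, against 13.82 to 15.47 in the rest). Car6, of the other transport genes listed below, was lowest there (10.58 and 10.76, against 14.02 to 16.6 in the rest). These genes were singled out after their values were seen. The 3'/5' signal ratio of housekeeping control probe sets, a sign of RNA integrity, overlapped between the groups for beta-actin (log2 0.19 to 0.95 in denervated and 0.61 to 1.14 in control glands), for GAPDH and for hexokinase. For GAPDH it did set the 3 arrays apart. Its log2 ratio was -0.58 in contralateral gland 1, -0.64 in the sham gland and -0.18 in denervated gland 1, and 0.01 to 0.35 in the other 7. Hexokinase ran from -1.33 to 1.65 in denervated and from -0.23 to 2.23 in control glands.

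The main comparison asked how the transport genes differed in denervated against all control glands. Slc12a2 and Atp1b1 gave higher mean intensities in the denervated glands, Slc12a3 and the brightest Atp2a2 probe set gave lower ones, and Aqp5 was close to level. None passed the test: limma gave an adjusted p under 0.05 to 0 of the 14 probe sets, as to 0% of all 6118. At an unadjusted p under 0.05, 3 of the 14 were higher, against a background of 5.02% of all tested probe sets, and 2 were lower, against 4.66%. The 3 higher ones came from Slc12a2 and Atp1b1 alone. Probe sets of 1 gene are not independent, and the genes were chosen with earlier results of these data known, so these counts are no measure of excess. The denervated and control values did not overlap for 1 of the 14, against 1.67% of all. The median log2 difference of the 14 was 0.20, with 8 above 0, and that of all 6118 was -0.08, with 44.6% above 0. In a whole gland, fewer cells of a type and less RNA per cell cannot be told apart.

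**Figure D1:**
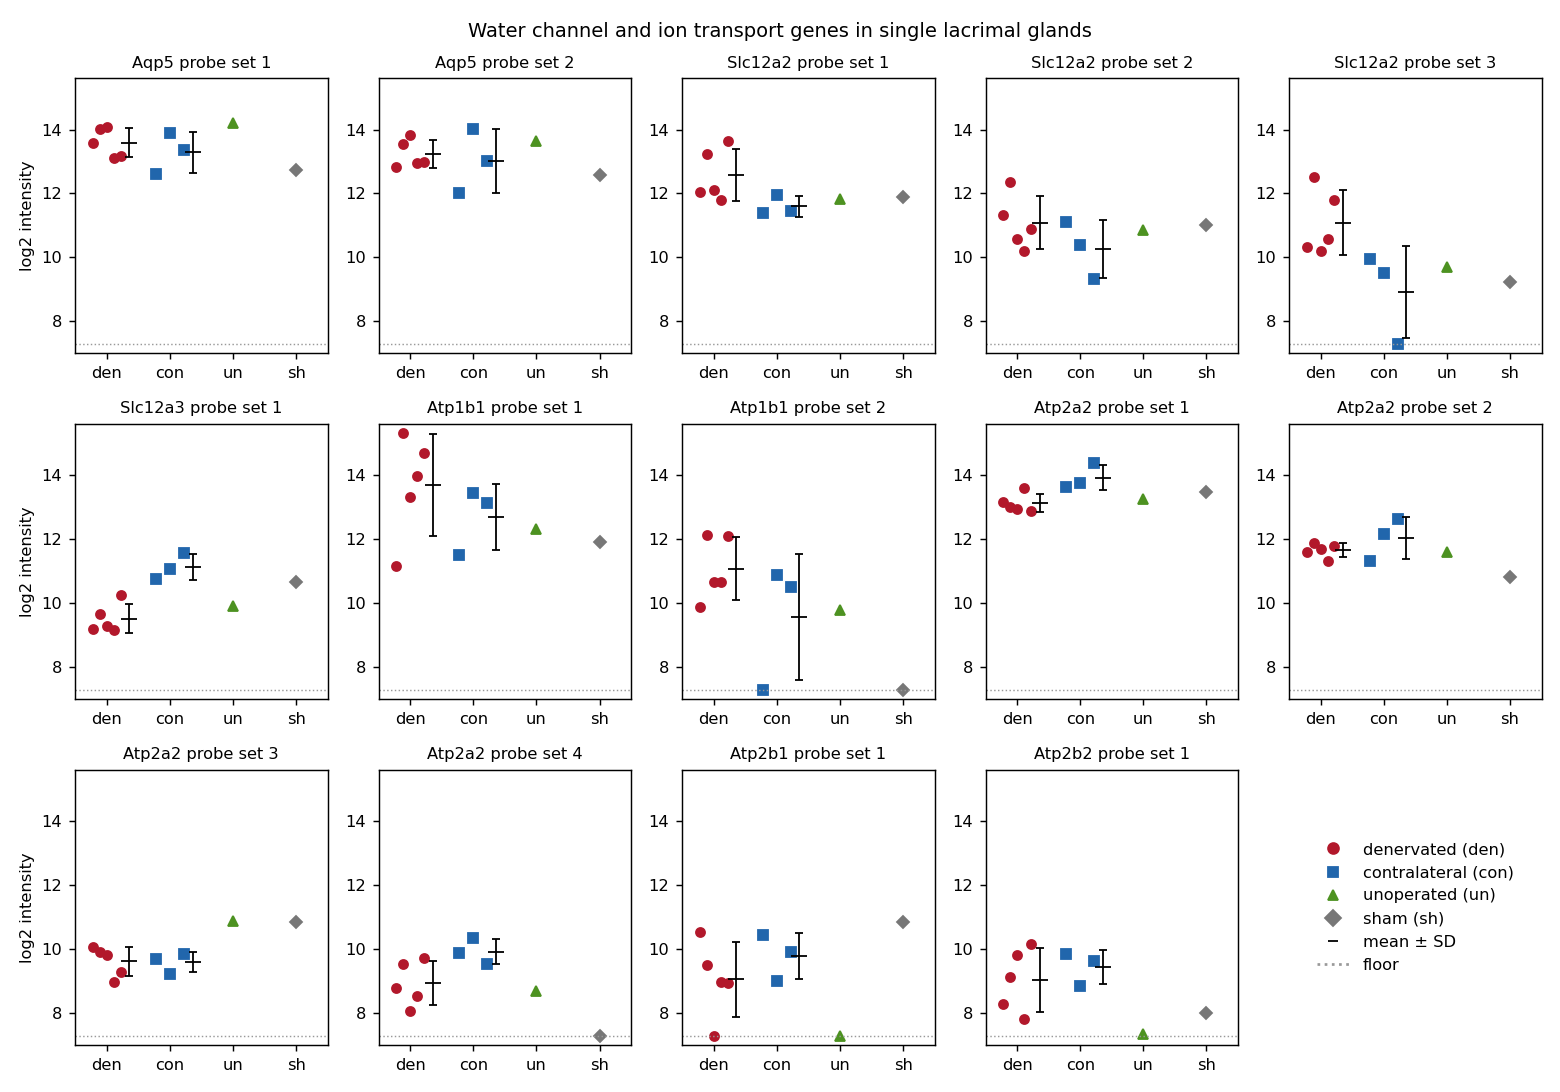
Log2 intensity (vertical axis) of the 14 tested probe sets in each gland, with denervated glands in red, contralateral in blue, unoperated in green and sham in grey; horizontal marks with bars are the mean and SD of the denervated (n = 5) and contralateral (n = 3) glands, and the dotted line is the floor of 7.29. Slc12a2 probe set 3 lies higher in every denervated gland (10.21 to 12.53) than in any control (7.29 to 9.96), while Aqp5 overlaps throughout.

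Aqp5, the water channel of the luminal membrane, was measured by 2 probe sets. Probe set 1 had log2 intensities of 13.58, 14.01, 14.07, 13.12 and 13.17 in denervated glands 1 to 5, against 12.61, 13.90 and 13.35 in contralateral glands 1 to 3, 14.21 in the unoperated and 12.75 in the sham gland. The unoperated gland was the highest of the 10, and the groups overlapped over most of their range. The mean was 13.59 ± 0.45 in denervated and 13.36 ± 0.70 in control glands (SD, n = 5 each), a log2 difference of 0.23 ± 0.33 (SE, 95% interval -0.47 to 0.92, adjusted p = 0.843 from limma). The interval therefore reaches from somewhat lower to nearly 2-fold higher.

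Probe set 2 of Aqp5 followed the same course over the glands, with a correlation of 0.91 with probe set 1 (n = 10 glands). On the array both are named for the same sequence, so they are not independent measures of the gene. It averaged 13.23 ± 0.43 in denervated and 13.06 ± 0.80 in control glands (SD, n = 5 each), a difference of 0.17 ± 0.35 (SE, 95% interval -0.57 to 0.92). Without the 3 arrays that stood apart, both Aqp5 probe sets had a difference of -0.23, so the sign rested on those arrays. The lowest Aqp5 values were in contralateral gland 1 (12.61 and 12.02) and the sham gland (12.75 and 12.59), both among those 3.

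Slc12a2 was higher in denervated glands in all 3 of its tested probe sets. Probe set 3 had log2 intensities of 10.34, 12.53, 10.21, 10.57 and 11.80 in denervated glands 1 to 5, against 9.96, 9.52 and 7.29 in contralateral glands 1 to 3, 9.71 in the unoperated and 9.23 in the sham gland. Every denervated gland lay above every control, with denervated glands 2 and 5 highest and contralateral gland 3 at the floor. The means were 11.09 ± 1.02 in denervated and 9.14 ± 1.07 in control glands (SD, n = 5 each). This was a 3.86-fold difference, 1.95 ± 0.59 on the log2 scale (SE), with an exact permutation p of 0.00794, the smallest that 5 against 5 glands allow, and an adjusted p of 0.435 over all probe sets from limma. The control value at the floor bears on this difference in 2 ways. With no floor set the log2 difference was 2.02, and without contralateral gland 3 it was 1.49.

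The brightest Slc12a2 probe set, number 1, had log2 intensities of 12.06, 13.25, 12.11, 11.80 and 13.63 in denervated glands 1 to 5, against 11.38, 11.96 and 11.44 in the contralateral, 11.82 in the unoperated and 11.90 in the sham gland. Denervated glands 2 and 5 stood well above all others, and denervated gland 4 fell within the control range. The difference was 0.87 ± 0.35 (SE, 1.83-fold, exact permutation p = 0.0397, adjusted p = 0.457 from limma). Probe set 2 differed by 0.54 ± 0.45 (SE, adjusted p = 0.718), with 10.21 to 12.36 in denervated and 9.31 to 11.12 in control glands. Probe set 4 was not tested, being at the floor in 9 of 10 glands and at 9.44 in denervated gland 5. On the array, probe sets 3 and 4 are named for the same sequence. Denervated gland 2, the highest for probe set 3 at 12.53, was at the floor in probe set 4, so the pair did not behave alike.

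The 3 Slc12a2 probe sets correlated at 0.55 to 0.80 with each other over the 10 glands. Denervated glands 2 and 5 also had the highest means of the fibroblast and matrix list (14.01 and 14.53, against 11.62 to 12.70 in control glands, all 10 of 10 listed genes measured) and of the myoepithelial and smooth muscle list (12.74 and 12.14, against 10.06 to 11.24, 10 of 12 measured). They were also the highest of all 10 glands for the macrophage list (12.66 and 12.74, against 10.93 to 11.65 in control glands, 8 of 11 measured), the duct keratin list (14.81 and 14.29, against 12.88 to 13.86, 3 of 4 measured) and the blood cell list (14.68 and 14.75, against 11.95 to 13.78, 4 of 7 measured). The same held for the adipocyte list (10.29 and 10.43, against 8.75 to 9.89 in control glands, 6 of 7 measured). Not every gene of a list followed its mean: Sparc, of the fibroblast and matrix list, was lowest of all 10 glands there, at 14.16 and 14.41. No gene of these lists was at the floor in every gland. Probe set 2 of Slc12a2 did not share the order of the list means, at 10.90 in denervated gland 5 and 11.34 in denervated gland 1. The part of these lists in the Slc12a2 difference was not tested. Without these 2 glands, the Slc12a2 differences were 0.29, 0.17 and 1.23 for probe sets 1 to 3. Probe set 3 remained without overlap, since the other denervated glands had 10.21 or more.

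The 120 bases shown next lie upstream of Slc12a2 and of Slc12a3, the related cotransporter that differed in the opposite direction, from the RefSeq promoter table of the GRCr8 assembly, 5' to 3' on the strand of the gene. For Slc12a2 the stretch covers bases -190 to -71 from the start of the transcript in that table (chr18:53546143-53546262, plus strand), because another transcript starts 70 bases upstream. For Slc12a3 it covers bases -120 to -1 from the start of its transcript in the table (chr19:10675051-10675170, minus strand). Another transcript starts 14958 bases upstream, so this stretch lies within the annotated gene. Capitals mark matches to GGGCGG, the GC box, or to TATAAA, the TATA box, on either strand.
Slc12a2: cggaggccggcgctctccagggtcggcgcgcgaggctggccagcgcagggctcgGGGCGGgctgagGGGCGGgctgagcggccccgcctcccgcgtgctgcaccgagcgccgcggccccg
Slc12a3: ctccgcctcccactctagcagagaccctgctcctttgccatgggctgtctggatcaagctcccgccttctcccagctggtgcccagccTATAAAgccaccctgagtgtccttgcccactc
The Slc12a2 stretch holds a pair of GC boxes and the Slc12a3 stretch a TATA box at -32 to -27. Among 33469 rat promoters in the table, 30.5% held a GC box and 12.9% a TATA box within 250 bases upstream. Such matches describe letters and not bound sites, and these data hold no measure of binding.

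Slc12a3 was lower in denervated glands. Probe set 1 had log2 intensities of 9.20, 9.66, 9.29, 9.17 and 10.25 in denervated glands 1 to 5, against 10.77, 11.07 and 11.56 in contralateral glands 1 to 3, 9.92 in the unoperated and 10.65 in the sham gland. The groups overlapped only through denervated gland 5, which lay above the unoperated gland. The means were 9.51 ± 0.46 in denervated and 10.80 ± 0.60 in control glands (SD, n = 5 each). The log2 difference was -1.28 ± 0.40 (SE), a 2.43-fold lower level, with an exact permutation p of 0.0159 and an adjusted p of 0.435 from limma. It was -1.58 without denervated glands 2 and 5 and -1.26 without the 3 arrays that stood apart.

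Against the contralateral glands alone, Slc12a3 probe set 1 was lower in all 5 denervated glands than in all 3 contralateral ones. The difference there was -1.62 ± 0.44 (SE, 3.07-fold lower), with an exact permutation p of 0.0179, the smallest that 56 splits allow, and an adjusted p of 0.634 from limma. Probe set 2 was not tested: it was at the floor in 3 of 5 denervated and 2 of 5 control glands, and its highest value, 10.43, was in contralateral gland 1. The mean of the salivary marker list, of which 8 of 15 genes were measured, was also lower in the denervated group, at 8.36 to 9.67 in denervated and 9.90 to 11.24 in control glands. Smr3a had the widest range of the list and weighed heavily on this mean. It ran from 7.29 to 16.39 in denervated and from 10.71 to 17.81 in control glands, with overlap. Of the 5 tested genes of the list, 0 were higher in denervated against all control glands. Within the groups the order was not shared: denervated gland 5 had the lowest salivary mean (8.36) and the highest denervated Slc12a3 (10.25), and the unoperated gland had the highest salivary mean (11.24) and the lowest control Slc12a3 (9.92). Its part in the Slc12a3 difference was not tested.

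Atp1b1, the beta 1 subunit that carries the sodium pump to the membrane, varied widely between glands. Probe set 1 had log2 intensities of 11.17, 15.32, 13.31, 13.99 and 14.69 in denervated glands 1 to 5, against 11.51, 13.44 and 13.15 in contralateral glands 1 to 3, 12.33 in the unoperated and 11.90 in the sham gland. Denervated gland 1 was the lowest of all 10 and denervated glands 2, 4 and 5 were the highest. The means were 13.70 ± 1.60 in denervated and 12.47 ± 0.82 in control glands (SD, n = 5 each), a difference of 1.23 ± 0.63 (SE, 2.35-fold, exact permutation p = 0.175, adjusted p = 0.542 from limma). Without denervated gland 1 it was 1.86, with an adjusted p of 0.0629 from limma, the lowest of any of the 7 genes in any fit that left out 1 gland. In that fit 70 probe sets over all genes passed the threshold, against 0 in the main fit, so the lower adjusted p was not particular to Atp1b1.

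Probe set 2 of Atp1b1 had log2 intensities of 9.87, 12.13, 10.67, 10.65 and 12.10 in denervated glands 1 to 5. The contralateral glands 1 to 3 had 7.29, 10.88 and 10.50, the unoperated gland 9.80 and the sham gland 7.29. The 2 control glands at the floor were among the arrays that stood apart, as was the lowest denervated gland. The difference of 1.93 ± 0.74 (SE, 3.82-fold, exact permutation p = 0.0794, adjusted p = 0.451 from limma) was 0.99 without those 3 arrays. The probe sets correlated at 0.83 over the 10 glands. Without denervated glands 2 and 5, in which the fibroblast and myoepithelial lists were highest, the differences were 0.36 for probe set 1 and 1.24 for probe set 2. Probe set 3 was not tested, with means of 7.90 ± 0.62 in denervated and 7.72 ± 0.63 in control glands (SD, n = 5 each).

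**Figure D2:**
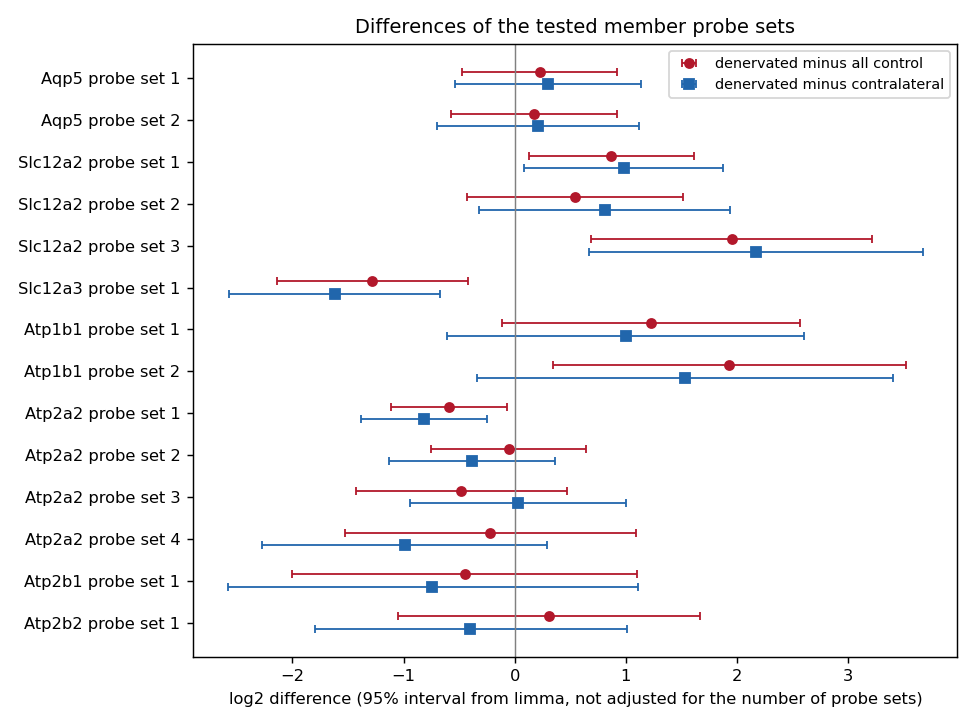
Log2 difference (horizontal axis) of each tested probe set, with its 95% interval from limma, unadjusted for the number of probe sets; red circles are denervated minus all control glands and blue squares denervated minus contralateral glands, which share the denervated glands and 3 controls. Slc12a2 probe set 3 (1.95 and 2.17) and Slc12a3 (-1.28 and -1.62) have intervals clear of 0 in both, and both Aqp5 probe sets have intervals across 0.

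Atp2a2, the calcium pump of the endoplasmic reticulum, was measured by 4 probe sets that did not behave alike. Probe set 1 had log2 intensities of 13.18, 13.00, 12.95, 13.59 and 12.89 in denervated glands 1 to 5, against 13.65, 13.76 and 14.39 in contralateral glands 1 to 3, 13.26 in the unoperated and 13.48 in the sham gland. Only denervated gland 4 reached into the control range, and contralateral gland 3 was the highest. The means were 13.12 ± 0.28 in denervated and 13.71 ± 0.43 in control glands (SD, n = 5 each), a difference of -0.59 ± 0.24 (SE, 1.5-fold lower, exact permutation p = 0.0317, adjusted p = 0.459 from limma). Against the contralateral glands alone the groups did not overlap, at -0.82 ± 0.26 (SE, 1.76-fold lower, exact permutation p = 0.0179, adjusted p = 0.634 from limma).

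Probe set 2 of Atp2a2 averaged 11.66 ± 0.22 in denervated and 11.71 ± 0.71 in control glands (SD, n = 5 each), a difference of -0.05 ± 0.33 (SE). Probe sets 3 and 4 differed by -0.48 ± 0.44 and -0.22 ± 0.61 (SE). Adjusted p for these 3 ran from 0.738 to 0.961 in limma. Over the 10 glands, probe set 1 correlated at 0.38 with probe set 2, at -0.11 with probe set 3 and at 0.24 with probe set 4. Against the contralateral glands alone, probe set 4 was lower by more than probe set 1, at -0.99 ± 0.59 (SE, 1.99-fold lower, exact permutation p = 0.0536, adjusted p = 0.747 from limma), with -1.19 to -0.78 when each gland was left out. Probe set 2 differed there by -0.38 ± 0.35 and probe set 3 by 0.03 ± 0.45 (SE). The differences of the 4 probe sets thus varied with the controls used, and which transcript each one measures is not given in the sources used here.

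By the rule of highest correlation over the 10 glands, the genes most like Atp2a2 probe set 1 were Psma1, a proteasome subunit, at 0.913, and Calr, which encodes the chaperone calreticulin of the same organelle, at 0.884. Calr had log2 intensities of 14.83, 13.63, 13.93, 14.41 and 13.03 in denervated glands 1 to 5, against 15.44, 14.86 and 16.09 in the contralateral, 14.28 in the unoperated and 14.96 in the sham gland. As with Atp2a2, contralateral gland 3 was highest and denervated gland 5 lowest. Because Atp2a2 and Calr act in the same organelle, bases -120 to -1 of Atp2a2 (chr12:39733399-39733518 of GRCr8, plus strand) are shown, 5' to 3', with capitals for the GC box on either strand and for CCAATNNNNNNNNNCCAC, which contains a CCAAT box by construction. These letters are the known endoplasmic reticulum stress element, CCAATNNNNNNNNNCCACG, without its last base.
Atp2a2: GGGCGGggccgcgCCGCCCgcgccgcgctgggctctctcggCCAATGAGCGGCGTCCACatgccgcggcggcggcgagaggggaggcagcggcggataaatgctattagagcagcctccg
The shorter form lies at -79 to -62 in Atp2a2, where the full element has no match, and Calr holds the full element on the other strand at -232 to -214. Of the 33469 promoters, 97 (0.29%) held the shorter form within 250 bases upstream on either strand, 22 (0.0657%) the full element and 34% a plain CCAAT. The search was made after both genes' values and the sequence had been seen. Aqp5, Slc12a2, Slc12a3, Atp2b1 and Atp2b2 held neither form in that window, which says nothing about what binds there.

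The plasma membrane calcium pumps varied upward from the floor (Atp2b1) or from just above it (Atp2b2). Atp2b1 probe set 1 had log2 intensities of 10.52, 9.50, 7.29, 8.98 and 8.95 in denervated glands 1 to 5, against 10.44, 9.01 and 9.90 in the contralateral, 7.29 in the unoperated and 10.85 in the sham gland. Both groups ran from the floor to above 10, and the difference was -0.45 ± 0.73 (SE, 95% interval -2.0 to 1.10, adjusted p = 0.860 from limma). Atp2b2 probe set 1 ran from 7.81 to 10.16 in denervated and from 7.34 to 9.84 in control glands, a difference of 0.31 ± 0.64 (SE, 95% interval -1.05 to 1.67, adjusted p = 0.892 from limma). Intervals this wide leave both a 2-fold higher and a 2-fold lower level possible for both genes.

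The other 2 probe sets of Atp2b1 and 3 of Atp2b2 were not tested. Their group means lay between 7.29 and 7.95 in denervated and between 7.44 and 8.41 in control glands. Atp2b1 probe set 2 was the most uneven of them, at 10.16 in the unoperated and 9.89 in the sham gland and at 7.73 or below in the others.

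A second comparison set denervated against contralateral glands alone. The contralateral glands were taken at the same interval after surgery and are also part of the control group above, so the comparisons are not independent. Again 0 of the 14 probe sets passed, as did 0% of all 6118. At an unadjusted p under 0.05, 2 were higher (4.15% of all), both of them of Slc12a2, and 2 lower (3.01% of all). Groups did not overlap for 3 (4.74% of all): Slc12a2 probe set 3, Slc12a3 probe set 1 and Atp2a2 probe set 1. Slc12a2 differed by 0.98 ± 0.41, 0.81 ± 0.52 and 2.17 ± 0.69 (SE) for probe sets 1 to 3, the last with an exact permutation p of 0.0357. Aqp5 differed by 0.30 ± 0.39 and 0.21 ± 0.42, and Atp1b1 by 1.00 ± 0.74 and 1.53 ± 0.86 (SE). Single contralateral glands weighed on these values: without contralateral gland 1 both Atp1b1 differences were 0.40, and without contralateral gland 3 Slc12a2 probe sets 2 and 3 differed by 0.33 and 1.35. Atp1b1 probe set 1 differed by 1.63 without denervated gland 1 and by 0.59 without denervated gland 2. Adjusted p of the 14 ran from 0.634 to 0.995 in limma.

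The third comparison asked whether contralateral glands differed from the unoperated and sham glands, which had no nerve cut. With 3 glands against 2 an exact permutation test cannot go below 0.1. None of the 14 probe sets passed, as 0% of all did, and 3 had an unadjusted p under 0.05, against 4.89% of all. Groups without overlap were found for 5 of the 14, against 22% of all, and only these are given, a choice made after the values were seen.

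Slc12a3 probe set 1 was higher in the contralateral glands by 0.84 ± 0.55 (SE), with 10.77 to 11.56 there, against 9.92 in the unoperated and 10.65 in the sham gland. Atp2a2 probe set 1 was higher by 0.57 ± 0.33 and probe set 4 by 1.93 ± 0.74, while probe set 3 was lower by 1.28 ± 0.56, with a log2 difference of -1.28 (SE). Atp2b2 probe set 1 had 9.84, 8.84 and 9.63 in the contralateral glands, against 7.34 in the unoperated and 8.01 in the sham gland, a difference of 1.77 ± 0.81 (SE). Adjusted p of the 5 ran from 0.967 to 0.977 in limma. Slc12a3 differed by 0.48 without the unoperated gland, Atp2a2 probe set 4 by 1.23 without the sham gland, which is at the floor, and Atp2a2 probe set 1 by 0.34 without contralateral gland 3. For Slc12a3 and Atp2a2 probe set 1, the larger difference of denervated from contralateral glands goes with contralateral values that lie above those of the other controls.

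**Figure D3:**
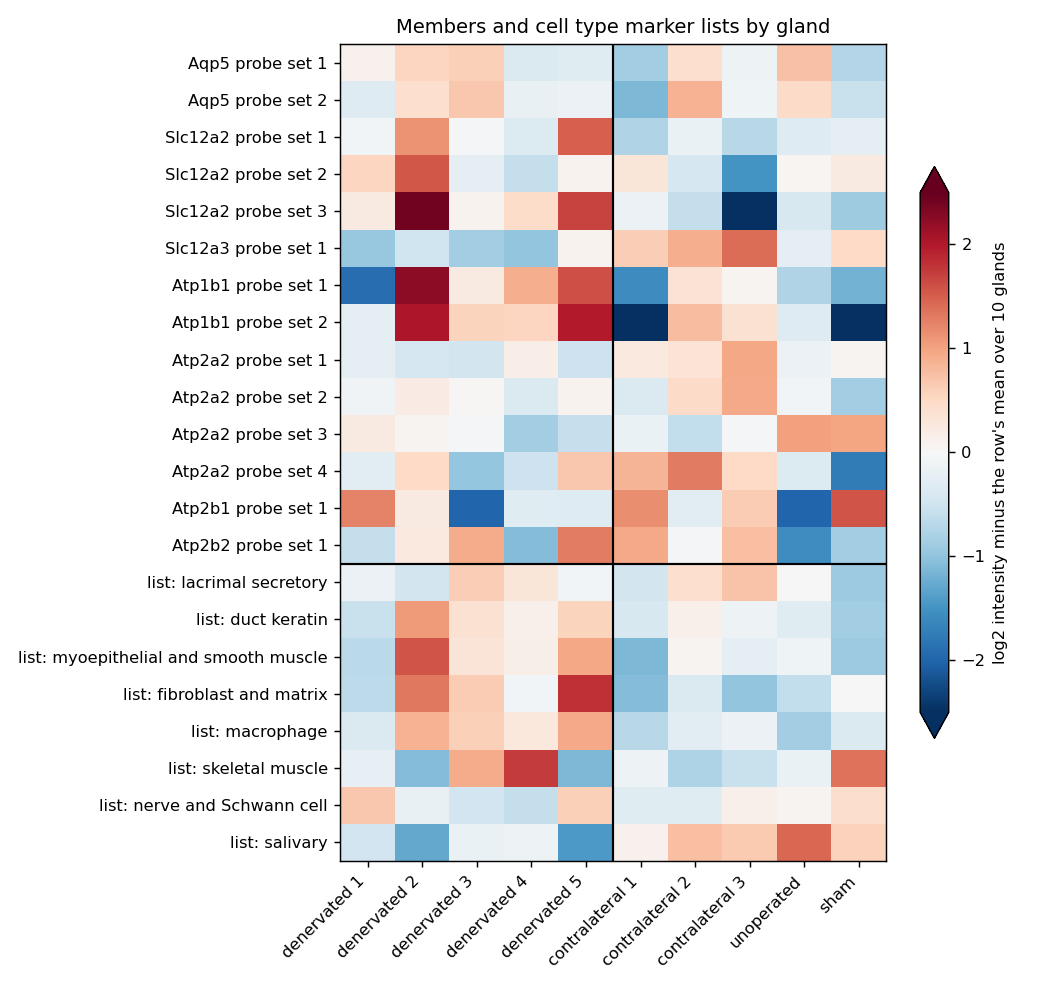
Log2 intensity minus the row's mean over the 10 glands (colour, clipped at the ends of the scale), for the 14 tested probe sets (upper block) and the means of 8 marker lists (lower block), with denervated glands left of the vertical line and controls right of it. Slc12a2 probe sets 1 and 3, both Atp1b1 probe sets and the fibroblast and myoepithelial lists are darkest red in denervated glands 2 and 5, while Slc12a2 probe set 2 is near its mean in gland 5 (10.90), and Slc12a3 is red in the contralateral glands.

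Few of the transport genes followed each other over single glands. Across the 10 glands, using the brightest probe set of each gene, the 4 strongest correlations are given here, and those of the other pairs lay between -0.35 and 0.36. Slc12a2 correlated with Atp1b1 at 0.70 and with Atp2a2 at -0.71. Slc12a3 correlated with Atp2a2 at 0.72, and Aqp5 with Atp2b1 at -0.72. These are descriptions over 10 glands of mixed groups that share array differences. Denervated glands 2 and 5 were the 2 highest of all 10 for both Slc12a2 and Atp1b1.

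The genes most like Atp1b1 included a pair known from smooth muscle. Tsc22d1 (0.97) and Acta2, smooth muscle actin (0.968), came first for probe set 1, and Myl9, a smooth muscle myosin light chain (0.981), and Igfbp2 (0.981) for probe set 2. Acta2 had log2 intensities of 12.28, 15.35, 13.90, 13.98 and 14.74 in denervated glands 1 to 5, against 11.84, 14.21 and 13.59 in the contralateral, 13.35 in the unoperated and 12.40 in the sham gland. Its order over the glands was close to that of Atp1b1 probe set 1, with glands 2 and 5 highest in both.

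Slc12a2 probe set 1 was most like Dcn, which encodes the matrix proteoglycan decorin, at 0.959, and Gpr15lg at 0.958. Dcn had 12.06, 14.16, 12.97, 12.77 and 14.78 in denervated glands 1 to 5, against 11.38, 12.42 and 11.74 in the contralateral, 11.95 in the unoperated and 12.33 in the sham gland. Probe set 2 was nearest to RT1-Bb, a class II histocompatibility gene, at 0.931 and to Cyb5r3 at 0.908, and probe set 3 to Fzd1 at 0.922 and Metrnl at 0.919. No neighbour was shared by the 3 Slc12a2 probe sets. Cd86 was shared by both Aqp5 probe sets (0.904 and 0.882), beside Spon1 (0.917) for probe set 1 and Crip2 (0.886) for probe set 2.

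Slc12a3 probe set 1 was most like Uqcc2, an assembly factor of mitochondrial complex III, at 0.868, and Ppib, a folding enzyme of the endoplasmic reticulum, at 0.866. The remaining Atp2a2 probe sets were nearest to Cox4i1 and Mfge8 (number 2), Abcc3 and Lztr1 (number 3) and Top1 and Phrf1 (number 4), at 0.856 to 0.917. Atp2b1 was nearest to Dnah9 (0.942) and Htr3a (0.907), and Atp2b2 to Medag (0.933) and Kctd20 (0.927). With 6118 probe sets and 10 glands, correlations of this size name the nearest patterns and no more.

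Other genes of water and ion transport and some of their regulators, 52 measured by a tested probe set and listed apart from the 7, gave a frame for these values. In denervated against all control glands, 23 of the 52 were higher and the median difference was -0.16. Their counts at an unadjusted p under 0.05 were 1 higher and 1 lower, where 5.02% and 4.66% of all tested probe sets were, and 0 passed. The share above 0 was 44.2%, beside 44.6% of all, which is close to the background. Aqp1, the water channel of endothelium and red cells, averaged 10.58 ± 1.03 in denervated and 9.31 ± 0.91 in control glands (SD, n = 5 each), a difference of 1.27 ± 0.57 (SE, adjusted p = 0.505 from limma). Slc26a2, a sulfate transporter, averaged 8.23 ± 0.76 in denervated and 9.50 ± 1.00 in control glands (SD, n = 5 each), a difference of -1.27 ± 0.59 (SE, adjusted p = 0.509).

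By family, 2 of 7 other water channels were higher, with a median of -0.56, and 4 of 6 other sodium pump genes were higher, with a median of 0.26. The counts were 3 of 3 for the other chloride cotransporters (median 0.28), 5 of 10 for the calcium pumps, exchangers and release channels (0.10) and 5 of 10 for acid and bicarbonate transport (-0.07). Chloride channels had 1 of 5 (-0.15) and the list of potassium and sodium channels 3 of 11 (-0.40). The lists were broader than their names. Of the 3 higher in the last one, Sgk1 (1.44) encodes a kinase, Nedd4 (0.45) a ubiquitin ligase and Kcne1 (0.19) a channel subunit. The kinase gene Stk39 (0.12) was listed with the chloride cotransporters and the proton pump gene Atp4a (-0.51) with the sodium pump. The calmodulin gene Calm2 (-0.03) was listed with the calcium pumps. None of these genes passed the test, so the counts give signs of differences and not changes.

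Against contralateral glands alone, an unadjusted p under 0.05 was reached by 1 of the 52 upward and by 1 downward, beside 4.15% and 3.01% of all probe sets, which is no excess. They are named by the rule and neither passed the test. Slc8a1, the plasma membrane sodium-calcium exchanger NCX1, averaged 10.70 ± 0.42 in denervated (n = 5) and 9.56 ± 1.01 in contralateral glands (n = 3), a difference of 1.13 ± 0.50 (SE, adjusted p = 0.687 from limma). Scnn1a, the alpha subunit of the epithelial sodium channel, averaged 8.4 ± 0.78 in denervated and 9.72 ± 0.13 in contralateral glands, a difference of -1.32 ± 0.59 (SE, adjusted p = 0.687 from limma). Its groups did not overlap, as for 4.74% of all probe sets. Atp2a1, the calcium pump of fast skeletal muscle, did not overlap there either, at 1.28 ± 0.59 (SE). In contralateral against unoperated and sham glands, the rule named 1 of the 52 upward and 4 downward, beside 4.89% of all probe sets in either direction. The groups did not overlap for any of these, as for 22% of all. Scnn1a was higher in contralateral (9.72 ± 0.13) than in unoperated and sham glands (7.45 ± 0.22), by 2.27 ± 0.74 (SE, adjusted p = 0.967 from limma). Between those same groups Atp2a1 differed by -2.5 ± 0.74, Atp2b4 by -2.78 ± 0.93, Clcn4 by -1.77 ± 0.76 and Car3 by -1.61 ± 0.74 (SE), all with an adjusted p of 0.967 from limma. The skeletal muscle list, which holds Atp2a1 and had 10 of 12 genes measured, averaged 8.29 to 8.95 in contralateral glands, against 8.91 in the unoperated and 10.43 in the sham gland.

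**Figure D4:**
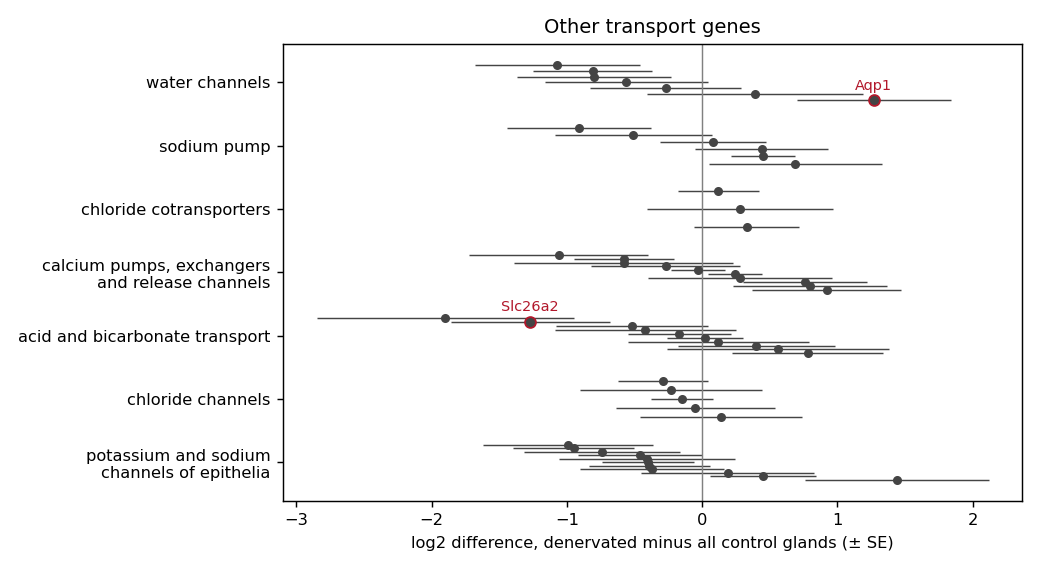
Log2 difference, denervated minus all control glands (horizontal axis, bars are the SE), of the 52 other tested transport genes, 1 point per gene in 7 lists. The genes with an unadjusted p under 0.05 are drawn as larger red points and named. The points spread on both sides of 0, with Aqp1 at 1.27 and Slc26a2 at -1.27, and 23 of 52 are above 0.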

How the data were processed

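The authors deposited a linear intensity for each of 8799 probe sets on 10 arrays. Array means with 2% trimmed at each end ran from 2505 to 2507 and medians from 554 to 979, so the deposited intensity values had been scaled to a common level. The software, detection calls and genome build behind them are unknown: not given in the sources used here. This scaling was kept, values under the 20th percentile (156.2) were set to it, and log2 was taken of the deposited values. After 59 array control probe sets were left out, 6118 of the remaining 8740 were tested, with a mean over glands exceeding their 30th percentile. Symbols came from the platform annotation (7006 probe sets with 1 symbol, 308 with several, 1426 not listed), matched to RefSeq names.

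Differences were tested with limma 3.58.1 in R 4.3.3 (lmFit and trended eBayes). Tests were two-sided and p-values were adjusted by Benjamini-Hochberg over all 6118, at a threshold of 0.05. Denervated and all control glands formed a fit of 2 classes, and the other contrasts came from a fit of 3 classes. An exact two-sided permutation test over glands was added for each probe set of the 7 genes. The steps were tested on simulated data. Precision is limited by the few arrays, and the median SE of a log2 difference was 0.50.

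All probe sets of the 7 genes are named. Of the other transport genes, those with an unadjusted p under 0.05 are named (at most 6 per direction and contrast), and for each tested probe set the 2 genes with the highest Pearson correlation over 10 glands. The 7 genes, the transport lists and the marker lists were chosen with earlier results of these data known. Scgb2a1, Dnase1, Dmbt1, Car6, Smr3a, the promoter stretches and the motifs were chosen after the values were seen.

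The alternatives comprised quantile normalization, equal array medians, other floors, no filter, no variance trend, array weights, the number as a block and leaving out each gland. Fits without the 3 arrays that stood apart, with them as a block, and without denervated glands 2 and 5 were added after the data were seen. Analyses used numpy 2.4.6, pandas 2.3.3 and scipy 1.17.1, with matplotlib 3.10.9 for the figures.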

Additional observations from a re-analysis of the deposited data

Results flagged for a closer look

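Slc12a2 probe set 3 in contralateral gland 3 was far from the other controls. Its log2 intensity was at the floor, 7.29, while the other 4 control glands had 9.23 to 9.96, a gap of 0.73 of the range of the 5. The deposited intensity was 121 there, against 599.9 to 996.9 in the others. Of 28 groups of 5 glands examined, 1 was singled out in this way, where chance alone gives about 1 in 20. Without this gland the difference of denervated from all control glands was 1.49 on the log2 scale, against 1.95 with it.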

How the results depend on the processing

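The 33 differences reported for the 7 genes were set beside 21 other settings, giving 688 values, of which 665 had the same direction and 23 the opposite one. None passed the threshold in any setting. The values of the replicate block fit, described below, are entered for both comparisons of denervated glands, so some of the 688 are repeats. Counts of passing probe sets over all genes were 0 in the main fits and in all alternatives but these. Denervated against all control glands gave 0 to 70 when each gland was left out, with 70 without denervated gland 1. Denervated against contralateral glands gave 1 without the variance trend and 1 with array weights. Contralateral against unoperated and sham glands gave 7 with no filter, and 0 to 1 when each gland was left out, with 1 without the unoperated gland. The cause was not tested.

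Most reversals concerned differences near 0. Leaving out 1 gland gave Aqp5 probe set 1 -0.04 to 0.61 against contralateral glands, and probe set 2 -0.08 to 0.41 against all control and -0.29 to 0.71 against contralateral glands. For Atp2a2 the ranges against all control glands were -0.28 to 0.18 (probe set 2) and -0.69 to 0.08 (probe set 4), and -0.15 to 0.19 against contralateral glands (probe set 3). Atp2b2 had -0.04 to 0.62 against all control glands. Equal medians gave Atp2a2 probe set 2 0.07 against all control glands, and array weights gave Aqp5 probe set 2 -0.01 against contralateral glands. Equal medians also moved the median of all probe sets from -0.08 to 0.04 for denervated against all control glands and from -0.15 to 0.18 in the third comparison. Of the alternatives chosen after seeing the data, leaving out the 3 arrays that stood apart gave Aqp5 -0.23 and -0.23 against all control glands and -0.03 and -0.19 against contralateral glands, and Atp2a2 probe set 3 -0.03 against contralateral glands. Leaving out denervated glands 2 and 5 gave Atp2b2 -0.09, and the 3 arrays as a block gave Aqp5 probe set 2 -0.02, both against all control glands.

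Same-numbered denervated and contralateral glands had correlations of 0.49, 0.04 and 0.16 between their deviations from the group means, and denervated gland 3 correlated better with contralateral gland 2 (0.18), so the numbers were not taken as pairs. The replicate block was 1 fit of the 8 denervated and contralateral glands, since the unoperated and sham glands share no number, and no block was run against all control glands. In it 0 probe sets passed and Slc12a3 differed by -1.75. It gave Atp2a2 probe set 3 0.35 and Atp2b2 -0.36, against 0.03 and -0.40 in the comparison with contralateral glands without the block, so neither sign turned. They count among the 23 because this fit was also set beside the differences from all control glands, -0.48 and 0.31, which use other controls.

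With 10 arrays, the 95% intervals of denervated against all control glands ran from -0.57 to 0.92 for Aqp5 probe set 2 and from -2.0 to 1.10 for Atp2b1. Setting low values to the floor made differences smaller than with no floor, for Slc12a2 probe set 3, Atp1b1 probe set 2 and Atp2b1.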
